A study of Mus musculus with 3 samples.

Results

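The carbonic anhydrases described here are 10 genes of the family, chosen by name with earlier results of these arrays known, namely *Car2*, *Car3*, *Car4*, *Car5b*, *Car6*, *Car8*, *Car9*, *Car12*, *Car13* and *Car14*. Their probes were found through the RefSeq accession of each spot, which gave 12 probes for 9 of the 10 genes, out of 32994 named probes for 22911 genes. No accession on the arrays matched *Car5b*, which was not analysed here. Total RNA was read from 3 cell lines of female BALB/c origin, namely Colon26, a mouse colon adenocarcinoma, and a pair of sublines derived from it, the high-metastatic LuM1 and the low-metastatic NM11. Each line was cultured for 3 days in RPMI1640 with 10% FBS and was read by 1 single-colour array, with no agent added and no genetic change made to any of them. The study asked how expression in LuM1 cells differed from that in NM11 and in the parental Colon26 cells.

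Carbonic anhydrases are zinc enzymes that convert carbon dioxide and water to bicarbonate and a proton, and they differ mainly in where they act. *Car2*, *Car3* and *Car13* encode cytosolic enzymes, *Car5b* a mitochondrial one, *Car6* a secreted one found in saliva, and *Car4*, *Car9*, *Car12* and *Car14* enzymes held in the plasma membrane with the active site outside the cell. *Car8* encodes a related protein that lacks the catalytic activity. *Car9* is known as a target of the hypoxia-inducible factors (HIF), and tumour cells use the outward-facing enzymes in keeping their internal pH.

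The 250 bases before the gene start are shown for the 4 detected genes with an entry in the RefSeq promoter table of GRCm38.p6, to show where the core letters of a HIF-binding element lie in genes that differed between the lines. The windows were chr4:43506776-43507025 (+ strand) for *Car9*, chr4:150201136-150201385 (- strand) for *Car6*, chr3:95904686-95904935 (- strand) for *Car14* and chr9:66713436-66713685 (+ strand) for *Car12*. *Car2* and *Car13*, the other detected genes, have no entry. Each is written 5′ to 3′ on the strand of the gene, and capitals mark ACGTG or, for the opposite strand, CACGT.
Car9: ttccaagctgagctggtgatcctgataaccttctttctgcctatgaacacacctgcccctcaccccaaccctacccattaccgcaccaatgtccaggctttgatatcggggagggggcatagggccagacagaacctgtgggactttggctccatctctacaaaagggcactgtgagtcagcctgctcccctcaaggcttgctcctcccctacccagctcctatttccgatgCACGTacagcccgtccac
Car6: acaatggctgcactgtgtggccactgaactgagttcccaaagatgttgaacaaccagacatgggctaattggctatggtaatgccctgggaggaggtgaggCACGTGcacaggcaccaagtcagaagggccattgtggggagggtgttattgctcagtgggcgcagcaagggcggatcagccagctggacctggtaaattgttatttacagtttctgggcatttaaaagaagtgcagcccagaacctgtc
Car14: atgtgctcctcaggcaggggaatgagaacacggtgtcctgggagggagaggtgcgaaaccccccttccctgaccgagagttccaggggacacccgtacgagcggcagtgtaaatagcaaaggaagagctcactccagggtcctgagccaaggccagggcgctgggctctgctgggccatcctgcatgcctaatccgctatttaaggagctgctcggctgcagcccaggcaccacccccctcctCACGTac
Car12: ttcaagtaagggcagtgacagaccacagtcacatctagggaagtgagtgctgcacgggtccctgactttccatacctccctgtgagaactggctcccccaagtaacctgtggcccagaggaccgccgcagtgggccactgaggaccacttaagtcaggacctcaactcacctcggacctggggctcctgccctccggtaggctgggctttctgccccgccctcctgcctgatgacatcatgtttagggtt

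The letters began 18 bases before the start of *Car9* and 7 bases before that of *Car14*, both as CACGT. In *Car6* a match on each strand overlapped in 1 CACGTG, which also spells an E-box, a site read by other basic helix-loop-helix factors, with its first base 149 bases before the start. The *Car12* window held neither ACGTG nor CACGT. The same was true of those of *Car4* and *Car5b*, which are not shown, so that 3 of 6 windows of the 10 genes held a match. Over all 32851 promoter windows of this length, 16.6% held at least 1 match, and a match is a description of the letters only. Other forms of the core letters were not searched, so a window without a match may still hold such an element.

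Levels are intensities of a probe with the 75th percentile of every array brought to 585.1, and the error after ± is that of the scanner software for 1 spot, about 10.0% of a bright signal plus a constant. The software marks spots that lie well above background. A probe with that mark is called detected. A probe without it has only a bound, and a fold against it was computed from its own signal or, where this was lower, from the dimmest detected probe of the same array, which read 26.4 in Colon26 cells, 20.1 in LuM1 cells and 19.6 in NM11 cells. As each line had 1 array, replicate error is unknown and differences were not tested, so they are compared only with the scanner error, and a line cannot be told apart from its culture and its array. In these bulk cultures, fewer cells that express a gene and less RNA per cell cannot be told apart. Of the 9 genes, 3 were well above background in Colon26 cells, 5 in LuM1 cells and 6 in NM11 cells, and *Car3*, *Car4* and *Car8* were so on no array.

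The 6 detected genes did not share 1 pattern over the lines. *Car9* was highest in Colon26 cells, *Car6* was high in Colon26 and NM11 cells and low in LuM1 cells, *Car12* was highest in NM11 cells, *Car13* was measured in both sublines but not in the parent, *Car14* was highest in LuM1 cells and *Car2* was measured in NM11 cells alone. In 5 of the 6, 1 line was at least 2-fold above or below both others, against 21.8% of the 14828 named genes detected on at least 1 array. Colon26 cells were above both sublines in *Car9* and below both in *Car13*, as they were in 4.46% and 4.53% of all genes. LuM1 cells were above both other lines in *Car14* (7.33% of all genes) and below both in *Car6* and *Car9* (4.03%). NM11 cells were above both others in *Car12* (2.58%) and below both in none of the 6 (2.08%). The members were named with these values known, so nothing about the family is read from that count.

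**Figure D1:**
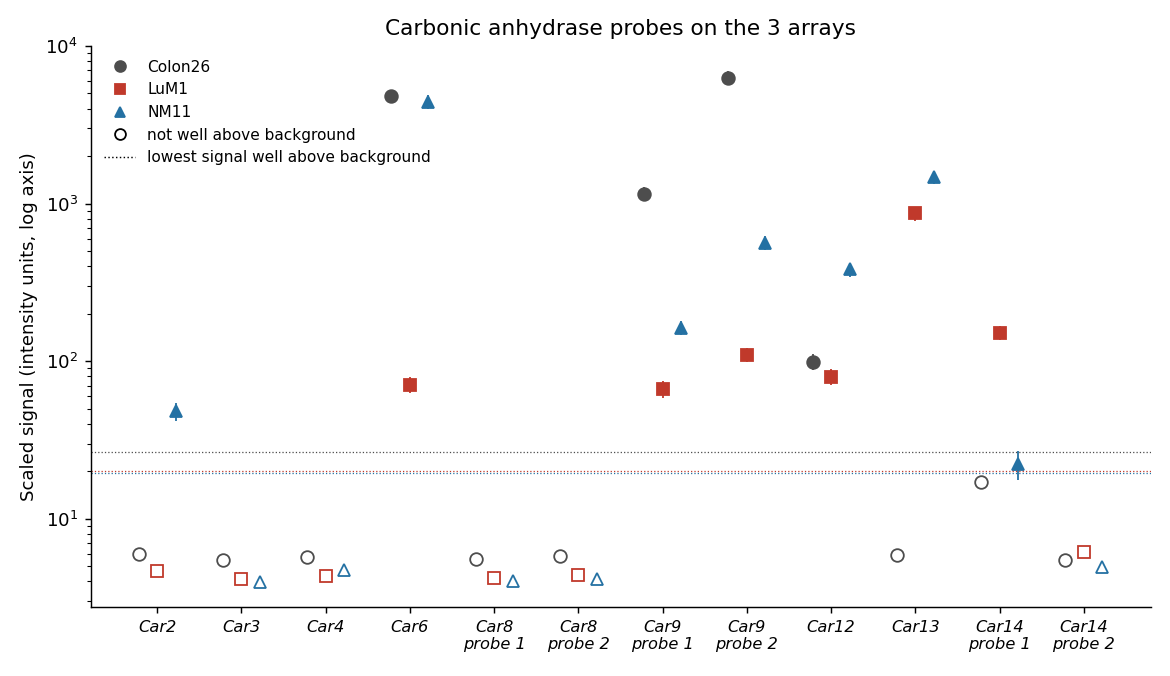
Scaled signal (log axis) of the 12 carbonic anhydrase probes in Colon26 (circles), LuM1 (squares) and NM11 cells (triangles), with bars for the scanner error. Open marks are not well above background and dotted lines mark the lowest signal well above background on each array. Levels compare between lines within a probe, not between probes. *Car9* reads 6264 in Colon26 and 110.0 in LuM1 cells on its brighter probe, and *Car6* stands apart in LuM1 cells at 70.9.

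Among the membrane enzymes, *Car9* showed the widest spread. The brighter of its probes (A_55_P2092750, RefSeq NM_139305) had a signal of 6264 ± 626 in Colon26 cells, 563 ± 56.5 in NM11 cells and 110.0 ± 11.8 in LuM1 cells. All 3 levels were well above background and differed from each other by more than the scanner error. LuM1 cells had a 57.0-fold lower level than Colon26 cells (log2 -5.83, scanner error 0.21). It was 11.1-fold lower in NM11 than in Colon26 cells (log2 -3.48) and 5.12-fold lower in LuM1 than in NM11 cells (log2 -2.36).

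The dimmer *Car9* probe (A_52_P610923), of the same accession, gave the same order with smaller ratios. Its signal was 1156 ± 116 in Colon26 cells, 163 ± 16.8 in NM11 cells and 66.4 ± 8.04 in LuM1 cells. On this probe the level in LuM1 cells was 17.4-fold lower than in Colon26 cells and 2.45-fold lower than in NM11 cells, and that in NM11 cells was 7.09-fold lower than in Colon26 cells. The probes thus agreed in direction and disagreed in size by more than the scanner error of their log2 ratios (0.21 and 0.23 for LuM1 over Colon26). Among the 12397 genes measured on both arrays, 15 had a log2 ratio of LuM1 over Colon26 as low as that of the brighter probe, *Car9* included.

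*Car12*, the other tumour-associated membrane enzyme, had its highest level in NM11 cells. Its single probe (A_52_P646858, NM_178396) read 99.4 ± 11.6 in Colon26 cells, 79.8 ± 9.18 in LuM1 cells and 382 ± 38.4 in NM11 cells. The level in NM11 cells was 3.84-fold that in Colon26 cells (log2 1.94, scanner error 0.22) and 4.78-fold that in LuM1 cells. LuM1 and Colon26 cells stood close together, with a log2 ratio of -0.32 against a scanner error of 0.24, and it was 0.13, of the opposite sign, in the authors' processed values. *Car9* and *Car12* therefore differed in order between the lines, with NM11 cells below the parent for the one and above it for the other.

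*Car14* was highest in LuM1 cells. Its brighter probe (A_51_P175424, NM_011797) read 151 ± 15.7 in LuM1 cells and 22.3 ± 4.63 in NM11 cells, the latter close to the lowest signal well above background. In Colon26 cells it read 17.0 ± 5.77 and was significantly but not well above background. The level in LuM1 cells was 6.76-fold that in NM11 cells (log2 2.76, scanner error 0.33) and at least 5.71-fold that in Colon26 cells. The other *Car14* probe (A_55_P2727429), of the same accession, was well above background on no array, so the difference rests on 1 probe. That other probe read 6.12 in LuM1 and 4.96 in NM11 cells and was not significantly above background in Colon26 cells. Both the bound and the ratio of the brighter probe were lowest after the normexp background correction, where the log2 values were 1.18 and 1.09.

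Some markers of other cell types were also higher in the LuM1 culture. Of 5 osteoclast markers, 3 were higher by 2-fold or more in LuM1 cells than in the parent and none was lower, among them *Ctsk* (cathepsin K, 299-fold), while *Oscar* had a log2 ratio of 0.07 and *Calcr* was not detected on any array. In all, 4 were detected in LuM1 cells and 2 in each other line, and the spot of *Atp6v0d2*, 1 of the 4, lay where 40.0% of 50 neighbouring spots dim on the other arrays were detected in LuM1 cells alone, against 8.14% over the array. Of 6 leukocyte markers, 3 were at least 2-fold higher and none was lower, *Csf1r* had a log2 ratio of 0.02, and *Ptprc* and *Adgre1*, which define leukocytes and macrophages, were detected on no array. The summed signals of the detected markers, which are not the same markers in each line, were 12992 in LuM1, 124 in Colon26 and 187 in NM11 cells for osteoclasts. Within the first of these sums *Ctsk* alone read 12603. For leukocytes the sums were 10229, 2007 and 1962 in the same order. Fibroblast markers went both ways, with 2 of 6 higher and 2 lower in LuM1 than in Colon26 cells, and summed signals of 50326 in LuM1, 65808 in Colon26 and 117282 in NM11 cells. Their part in the level of *Car14* was not tested. *Car4*, the membrane enzyme tied to the cell surface by a lipid anchor and typical of surface colonocytes, was well above background on no array. It read 4.74 in NM11 cells. The written values in Colon26 (5.73) and LuM1 cells (4.34) were the errors of spots not significantly above background.

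The secreted enzyme *Car6* separated LuM1 cells from both other lines. Its probe (A_52_P310511, NM_009802) read 4795 ± 480 in Colon26 cells, 4412 ± 441 in NM11 cells and 70.9 ± 8.48 in LuM1 cells, all well above background. Colon26 and NM11 cells did not differ beyond the scanner error (log2 -0.12, scanner error 0.20), though scaling to *Hprt* moved this log2 ratio to -0.61. The level in LuM1 cells was 67.6-fold lower than in Colon26 cells (log2 -6.08) and 62.2-fold lower than in NM11 cells (log2 -5.96), with a scanner error of 0.22 for each. In both comparisons 11 genes had a ratio as low, *Car6* included, out of 12397 and 12851 measured.

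The cytosolic *Car13* separated the parent from both sublines. Its probe (A_55_P2156855, NM_024495) read 865 ± 86.6 in LuM1 cells and 1471 ± 147 in NM11 cells. In Colon26 cells it was not significantly above background, and the written value of 5.89 equals that spot's error within 1% and is no level. It was at least 32.7-fold higher in LuM1 and at least 55.7-fold higher in NM11 cells than in Colon26 cells. Between the sublines the log2 ratio of LuM1 over NM11 was -0.77 with a scanner error of 0.20, and scaling to *Hprt* brought it to -0.18, within that error.

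*Car2*, the widespread and fast cytosolic enzyme that osteoclasts use to acidify bone, was well above background in NM11 cells alone. Its probe (A_51_P455647, NM_009801) read 48.0 ± 6.50 in NM11 cells, while the values in Colon26 (5.99) and LuM1 cells (4.65) were the errors of spots not significantly above background. The bounds were small at this brightness, at least 2.39-fold over LuM1 and at least 1.82-fold over Colon26 cells. The bound over LuM1 cells was under 2-fold with scaling to E1A spike-in spots or to *Hprt*, after the normexp correction and in the authors' processed values. Around this spot, 13.2% of the 53 neighbouring spots that were dim on the other arrays were well above background in NM11 cells, against 5.15% over the whole array, and the part of this in the signal was not tested.

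*Car13*, *Car1*, *Car3* and *Car2* lie next to each other in this order on chromosome 3 of GRCm38.p6, with no other protein-coding gene between them in the gene table. The neighbours did not share 1 pattern. *Car13* was detected in LuM1 and NM11 cells, *Car2* in NM11 cells and *Car3*, the muscle and fat isoform, in neither. The written values of *Car3*, from 3.97 to 5.50, were the errors of spots not significantly above background. *Car1*, which is not among the 10 genes, was dim in all 3 lines, at 53.8 ± 8.09 in Colon26, 82.8 ± 9.53 in LuM1 and 41.4 ± 6.10 in NM11 cells on its detected probe. Both probes of *Car8* (A_51_P392005 and A_66_P126640) were not significantly above background on any array, and their written values, at most 5.83, were the errors of the spots.

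For LuM1 over Colon26 cells, 5 of the 9 genes were detected on 1 or both arrays, and 2 of these were at least 2-fold higher (*Car13* and *Car14*) and 2 at least 2-fold lower (*Car6* and *Car9*). Over the 14353 named genes detected the same way, 12.9% were higher and 11.7% lower. For NM11 over Colon26 cells, 2 of 6 detected members were higher (*Car12* and *Car13*) and 1 was lower (*Car9*), with 8.17% and 7.74% of all genes. For LuM1 over NM11 cells, 1 of 6 was higher (*Car14*) and 4 were lower (*Car2*, *Car6*, *Car9* and *Car12*), with 11.1% and 8.5% of all genes. The comparisons share arrays and the genes were chosen for these values, so the counts are a description.

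**Figure D2:**
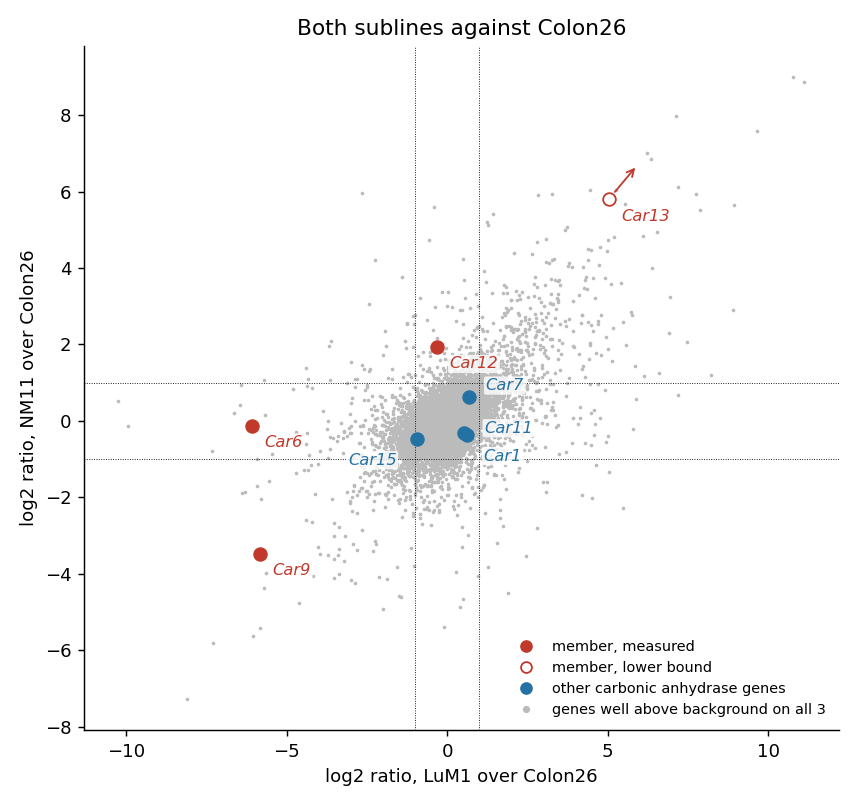
log2 ratio of LuM1 over Colon26 (horizontal) and of NM11 over Colon26 (vertical) for 12249 genes well above background on all 3 arrays (grey), with carbonic anhydrase genes that have both values. Dotted lines mark 2-fold and the open mark with an arrow is a pair of lower bounds. *Car6* and *Car9* lie at -6.08 and -5.83 on the horizontal axis, and *Car13* at the upper right, whereas *Car1*, *Car7*, *Car11* and *Car15* lie within 2-fold on both axes.

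The rest of the family was examined in the same way, and since the 10 genes were chosen with their values known, a smaller spread among the others would follow from the choice. Of the 6 other carbonic anhydrase genes, *Car5a* and *Car10* were well above background on no array, and *Car1*, *Car7*, *Car11* and *Car15* were so on all 3. None of the 4 was at least 2-fold different in any comparison under the 75th percentile. *Car15*, a membrane-anchored isoform, came close in LuM1 over Colon26 cells (log2 -0.95, signals of 109 and 210) and passed 2-fold after quantile normalization, while its log2 ratio of LuM1 over NM11, -0.47, turned to 0.12 when scaled to *Hprt*. *Car1* came closest in LuM1 over NM11 cells (1.998-fold, scanner error 0.27 on the log2 scale) and passed 2-fold in 5 of 12 alternatives. *Car7*, a cytosolic isoform known from the brain, read 492 in Colon26, 797 in LuM1 and 756 in NM11 cells, and the dim *Car11*, a relative without catalytic activity, read 36.8, 53.4 and 29.7. The log2 ratio of *Car11* in LuM1 over NM11 cells, 0.85, passed 2-fold in 4 of 12 alternatives, reaching 1.43 with *Hprt* as the scale. In the authors' processed values *Car1* and *Car7* also passed 2-fold in LuM1 over Colon26 cells, with log2 ratios of 1.07 and 1.14.

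**Figure D3:**
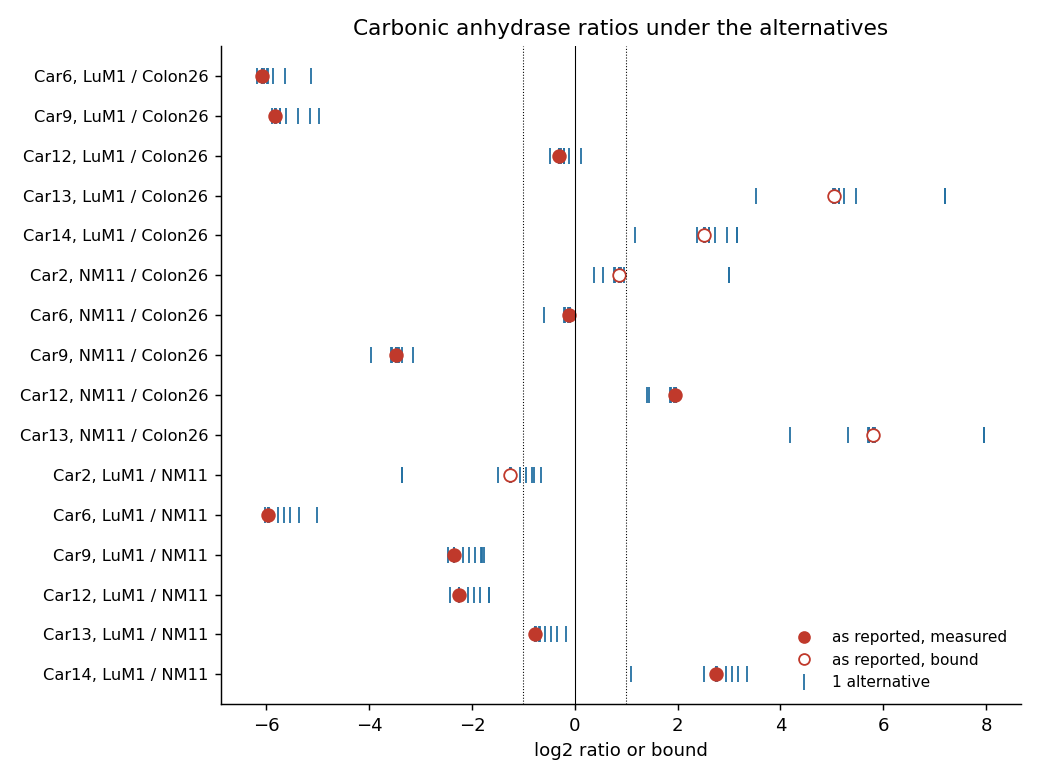
log2 ratios or bounds of the carbonic anhydrase genes in each pair of lines as reported (red, open for bounds) and under each of 12 alternatives in scaling, background correction, detection, choice of probe and left-out spots (blue ticks). Dotted lines mark 2-fold. No ratio past 2-fold changed sign, and that of *Car12* in LuM1 over Colon26 cells, at -0.32, crossed 0.

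Since *Car9* is known as a HIF target, the HIF genes and other hypoxia-inducible genes were set beside it. In LuM1 cells *Hif1a*, the oxygen-regulated subunit, was 2.66-fold higher than in the parent and 2.04-fold higher than in NM11 cells. *Epas1*, which encodes the related HIF-2α, was well above background in LuM1 cells alone, at least 111-fold higher than in Colon26 cells on its single probe. Around this spot, 23.8% of the 42 neighbouring spots that were dim on the other arrays were detected in LuM1 cells, against 8.14% over the array. The part of this in the *Epas1* signal was not tested. The log2 ratios of *Vhl* (-0.33), whose product marks the HIF subunits for degradation, and of *Egln1* (0.32), an oxygen-sensing hydroxylase, were small in LuM1 over Colon26 cells. RNA of *Car9* was lowest in the line in which that of *Hif1a* and *Epas1* was highest. The arrays do not read HIF protein, and the part of HIF in the level of *Car9* was not tested. *Epas1* was named with its values known.

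The 15 other hypoxia-inducible genes were on balance close to the bulk of all genes in LuM1 over Colon26 cells and below it in NM11 over Colon26 cells. In LuM1 over Colon26 cells, 2 were at least 2-fold higher, both through bounds (*Adm*, at least 3.80-fold, and *Pfkfb3*, at least 3.70-fold), and 1 was lower (*Vegfa*, with a log2 ratio of -1.37 on its brightest probe, although its 4 probes ranged up to 0.94). The median log2 ratio of the 13 measured genes was 0.00, against -0.13 over the 12397 genes measured on both arrays. Among them *Egln3*, another hydroxylase of HIF, had a log2 ratio of 0.68, and *Kdm3a*, a histone demethylase, of 0.50. In NM11 over Colon26 cells, 1 was higher (*Adm*) and 3 were lower (*Egln3*, *Ankrd37* and *Vegfa*), and the median log2 ratio of 12 measured genes was -0.49, against -0.02 over 12471 genes. *Egln3* was at least 23.1-fold lower in NM11 than in Colon26 cells. In LuM1 over NM11 cells, 3 of the 15 were higher and 1 was lower. There the median log2 ratio of 14 measured genes was 0.67, against -0.11 over 12851 genes, and *Car9* had -2.36. The *Car9* log2 ratio of -5.83 in LuM1 over Colon26 cells was lower than that of any gene of both lists, whereas in NM11 over Colon26 cells *Egln3*, at a bound of -4.53, lay below *Car9* at -3.48. *Adm*, *Pfkfb3* and *Ankrd37* fall outside the naming rule and were picked with their values known.

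**Figure D4:**
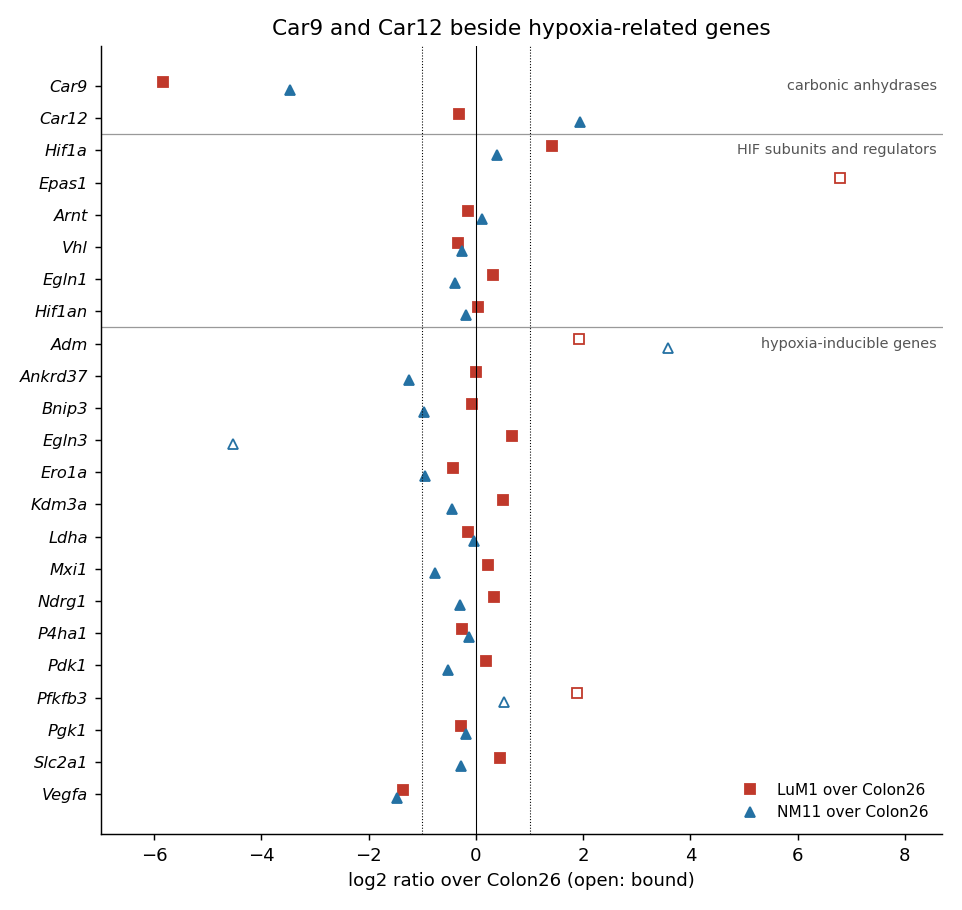
log2 ratio of LuM1 over Colon26 (squares) and NM11 over Colon26 (triangles) for *Car9* and *Car12*, 6 HIF subunits and regulators and 15 hypoxia-inducible genes, each by its brightest probe. Open marks are bounds, a missing mark means that neither array was well above background, and dotted lines mark 2-fold. *Car9* lies at -5.83 and -3.48, while the median of the measured hypoxia-inducible genes lies at 0.00 and -0.49.

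Carbonic anhydrases work with transporters of bicarbonate, protons and lactate. Of 13 bicarbonate transporters, 5 were measured in both LuM1 and Colon26 cells, with a median log2 ratio of -0.96. Counting bounds, 1 was at least 2-fold higher and 3 were lower in LuM1 cells. Over all named genes the median was -0.13, and 12.9% were higher and 11.7% lower among those detected on either array. Among the 3 lower genes was *Slc4a10*, through a bound, and its Colon26 spot lay in a local cluster of spots detected on that array alone. Named by the size of the measured difference were *Slc26a6*, an anion exchanger (log2 -1.42, and down to -1.80 over its 3 probes), *Slc4a11* (-1.27) and *Slc4a7*, a sodium-bicarbonate cotransporter (-0.96). Of 11 genes of proton and lactate export, 7 were measured in both lines and none was 2-fold different, with a median of -0.14. The largest differences among these were those of *Bsg* (-0.78), the chaperone of the lactate transporters, and of the sodium-proton exchangers *Slc9a2* (-0.50) and *Slc9a5* (-0.43). In NM11 over Colon26 cells *Slc9a2* was 2.79-fold lower.

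The profiles most like those of *Car6* and *Car9*, the 2 members with the widest range among those well above background on all 3 arrays, were found by the Euclidean distance of log2 signals centred over the 3 arrays, among 12249 genes. Nearest to *Car6* were *Sox2* (distance 0.28), a stem cell transcription factor, *Lgals7* (0.63), which encodes galectin-7, and *Thbs1* (0.65), which encodes the matrix protein thrombospondin-1. *Sox2* read 1087 in Colon26, 21.1 in LuM1 and 1202 in NM11 cells. Its LuM1 value lay close to the lowest signal well above background on that array (20.1), so its distance rests partly on a dim value. Nearest to *Car9* were *Grb14* (0.52), an adaptor of receptor tyrosine kinases, *Misp3* (0.78) and *Retreg1* (1.03), a receptor for autophagy of the endoplasmic reticulum. *Grb14* read 1362, 27.3 and 85.9 in the same order. With 3 arrays such likeness is a description.

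The labelled tissue was checked on 10 epithelial markers, of which *Cdh1*, *Krt18*, *Krt19*, *Vil1* and *Cldn4* were well above background on no array. *Krt20* and *Cdx2*, markers of intestinal epithelium, were detected in all 3 lines, and their log2 ratios of LuM1 over Colon26 were -3.58 and -0.94, whereas *Krt8* had 1.89. Of the 5 surface colonocyte markers, *Slc26a3* and *Muc2* were well above background on no array. In LuM1 over Colon26 cells *Aqp8* had a log2 ratio of 3.70, *Car1* of 0.62 and *Guca2a* of -0.38. Of 6 fibroblast markers, 3 were detected in Colon26 cells and 5 in each subline. In LuM1 cells *Col1a2* was 1207-fold and *Col1a1* 2.19-fold lower than in the parent. *Dcn* was at least 1041-fold and *Thy1* at least 741-fold higher, both outside the naming rule, and *Pdgfrb* had a log2 ratio of -0.04. *Pecam1* was the 1 endothelial marker detected, with a log2 ratio of LuM1 over Colon26 of 0.05. Of 5 erythroid markers, 1, 2 and 3 were detected in Colon26, LuM1 and NM11 cells, and *Alas2* and *Hbb-bt* on no array. The arrays had 49.9% to 53.8% of 56605 probes well above background and no saturated spot.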

How the data were processed

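The 10 genes and all gene lists were chosen with earlier results of these data known. The authors deposited intensity values per spot from Agilent Feature Extraction 11.5.1.1 (per the file headers background-subtracted, detrended and unscaled between arrays), from 0.1 µg of total RNA labelled with Cy3, and flags of 0 or 1 for outliers and detection. They also deposited processed intensity values, which equal the scanner intensity times 0.654 for Colon26, 0.829 for LuM1 and 0.706 for NM11 (column medians 18.7, 29.0 and 18.0). Their normalization is not given in the sources used here. The file headers name an assembly that predates GRCm38.p6, so probe positions were not used.

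Control spots and 74 to 137 outlier spots per array were left out, and repeated spots of a probe were averaged. The scaling used the 75th percentile of every array (581.1, 625.1 and 551.5 as deposited for Colon26, LuM1 and NM11). Of 56605 probes, 58.3% were named by accession, and a gene was represented by its probe with the highest mean log2 signal. The number of arrays limits the precision. Every probe of the members was named, as were the other family genes and, by rule, the 3 genes per list with the largest measured LuM1 over Colon26 difference and the 3 nearest profiles of 2 members. Of the marker lists other than epithelial and colonocyte ones, mostly counts are given. Alternatives were 5 other scalings, normexp correction (offset 50, on the median spot brightness), the authors' processed values, 2 other detection rules, 2 other choices of probe, a 4-fold threshold and leaving out spots that lie in local clusters of spots detected on 1 array alone (at least 4 times the share of the array within 5 rows and columns). The ratio calculation was tested on simulated data. Python 3.11.15, numpy 2.4.6, pandas 2.3.3, matplotlib 3.10.9, R 4.3.3 and limma 3.58.1 were used.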

Additional observations from a re-analysis of the deposited data

How the results depend on the processing

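Under 13 alternatives, the counts of carbonic anhydrase genes at least 2-fold higher or lower stayed within 1.5 times in every comparison except with a 4-fold threshold, where 1 gene in place of 2 was higher in NM11 than in Colon26 cells, since *Car12* was 3.84-fold higher. Of the 16 ratios or bounds of single genes, 12 lay past 2-fold, and none of these changed sign. This was largely fixed beforehand. A value given as a bound cannot change sign, although bounds became plain ratios where dim signals were taken at face value. Among the scalings, that to *Hprt* shifted log2 ratios most, by at most 0.59. The normexp correction moved some values further, that of *Car14* in LuM1 over NM11 cells from 2.76 to 1.09. Only the bound of *Car2* crossed the 2-fold threshold, as LuM1 over NM11 in 4 alternatives (log2 -3.37 to -0.67) and as NM11 over Colon26 in 2 (0.37 to 3.00), the latter where dim signals were taken at face value or detection needed only a signal significantly above background. The log2 ratio of LuM1 over Colon26 ranged from -5.89 to -4.98 for *Car9*, the highest as the mean over its probes, and from -6.17 to -5.13 for *Car6*, the highest after normexp correction. The median of measured probes shifted by 0.45 in LuM1 over Colon26 in the authors' processed values and by 0.59 in LuM1 over NM11 when scaled to *Hprt*. Among the members only the *Car2* spot was detected on 1 array alone and so could be marked as lying in a local cluster, which it was not. Leaving such spots out could therefore not change the values of the other members. Signals near background limit *Car2* and *Car14*. No paired analysis was possible because each line had 1 array, and no array could be left out.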

Other observations

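Among the bicarbonate transporters, 2 genes outside the naming rule, picked with their values known, differed through bounds. *Slc4a8*, a sodium-driven chloride-bicarbonate exchanger, was well above background in LuM1 cells alone, with a scaled signal of 376 on its brightest probe, at least 14.2-fold over Colon26 and at least 19.2-fold over NM11 cells. Its other probe was also well above background in LuM1 cells alone. *Slc4a10*, a bicarbonate transporter known from the brain, was detected on the Colon26 array alone (238) by 1 of its 3 probes, at least 11.8-fold over LuM1 cells. The spot of *Slc4a10* lay in a local cluster of spots detected on the Colon26 array alone, where 46.5% of the 43 neighbouring spots that were dim on the other arrays were detected, against 4.58% over the array. The part of that cluster in its signal was not tested.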
